A study of Mus musculus with 4 samples.

Results

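Gene expression in liver was compared between wild-type mice and mice without PPARα on chow with no added agonist, to see which transcripts stood at another level when the receptor was missing in the basal state. The comparison takes 2 of the 4 arrays of the series, namely the wild-type control and the PPARα-null control, each hybridised to liver RNA pooled over the mice of its group (5 per group in the design text). It covers 22626 of the 22690 probe sets of the Affymetrix MOE430A array, since 64 Affymetrix control probe sets were left out, and these carry 12393 gene symbols. All mice were male and 12-20 weeks old, and the control groups received normal food for 5 days. In the sample labels the wild-type mice are 129S1/SvImJ and the PPARα-null mice, which lack a functional Ppara gene in the whole body, are 129S4/SvJae. The study's methods instead describe both genotypes as of a Sv129 background. By the labels, effects of genotype and of substrain cannot be told apart. The other 2 arrays come from the same genotypes fed 0.1% (w/w) of the synthetic agonist Wy14643 for 5 days. They are used here only to set the same genotypes side by side on another diet.

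Values are intensities that the authors computed with GCRMA, so the ratio of a probe set between 2 arrays can be read, while levels of different genes are not set against each other. A log2 ratio above 0 means a higher level in wild-type liver, and 1.5-fold or more in either direction was taken as a difference. Background was set at an intensity of 12.97, below which lie 90% of the intensities of 87 probe sets. These read 53 genes taken as silent in liver, a list drawn up with earlier results of these data known. Of the 53 genes, 44 lay below background on both chow arrays and 9 above it on 1 or both. In all, 7397 genes lay above background on 1 or both of the chow arrays and 4996 on neither. With 1 pool per genotype there is no measure of the spread between mice, no p-value can be given, and precision is limited by the number of arrays. Where a gene lay below background on 1 array, the fold is given as the smallest that background allows. In whole liver, fewer cells of a type and less RNA per cell cannot be told apart.

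PPARα is a nuclear receptor that binds DNA together with the retinoid X receptor and switches on genes when fatty acids or synthetic agonists occupy it. In hepatocytes it is known above all for genes that carry fatty acids into mitochondria and peroxisomes and break them down, and its activity is known to rise in fasting. Without an added agonist it can be occupied by fatty acids of the liver itself.

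Ppara itself had an intensity of 847 in wild-type and 326 in PPARα-null liver on chow, against 1250.1 and 428 on Wy14643, which is 2.60-fold higher in wild-type mice on chow. It was read by 1 probe set, and whether that probe set lies in the disrupted part of the gene is not given in the sources used here. Among 12 hepatocyte markers, which include Alb, Ttr and Hnf4a, 0 reached 1.5-fold, and their summed intensity was 102030.0 in wild-type and 102628 in PPARα-null liver. Markers of Kupffer cells, the macrophages of liver, had a median log2 ratio of -0.22, and 0 of 11 reached 1.5-fold, while 0 of 11 had a ratio above 0. Their summed intensity was 3108 in wild-type and 3569.7 in PPARα-null liver, with Marco and Cd68 below background on both arrays. Stellate cell markers stood at a median of -0.28, with 0 of 8 at 1.5-fold and 1 of 8 above 0. Sinusoidal endothelial markers stood at -0.12, with 3 of 12 above 0. Bmp2 was the 1 of 12 that was at least 1.5-fold lower in wild-type liver (62.6 against 110.1). Of the markers of cholangiocytes, T cells, B cells, neutrophils, erythroid cells and pancreatic acinar cells, at most 4 of a list were above background and 0 of those differed 1.5-fold. With 2.42% of all measured genes higher and 2.47% lower, marker lists this short would hold few or no calls in any case. Summed intensities of the stellate, endothelial and Kupffer cell lists were all somewhat lower in wild-type liver (2278 against 2689.7 and 1776 against 1945 for the first pair of lists). Their part in the ratios below was not tested.

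On chow the genotypes differed in a small part of the transcripts. At least 1.5-fold higher levels in wild-type liver were seen for 290 probe sets (1.28%) and lower levels for 306 (1.35%). Over the 7397 measured genes, each read by its brightest probe set, 179 (2.42%) were higher and 183 (2.47%) lower in wild-type liver. At 2-fold or more 61 genes were higher and 35 lower, at 4-fold 16 and 5, and at 8-fold 4 and 3. The balance of the smaller differences rested on the scaling of the arrays. After each array was centred on its median above background, where the wild-type median differed from the PPARα-null median by -0.06 on the log2 scale, 349 probe sets were higher and 230 lower. Quantile normalization of the chow arrays gave 302 and 260, and cyclic loess over the 4 arrays gave 320 and 257. The standard deviation of the log2 ratio over the measured genes was 0.34 on chow and 0.97 between the genotypes on Wy14643. It was 0.33 for the PPARα-null pair on and off Wy14643, a pair that shares an array with the chow comparison. In that pair 160 of the 7397 genes were at least 1.5-fold higher on Wy14643 and 334 lower.

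**Figure D1:**
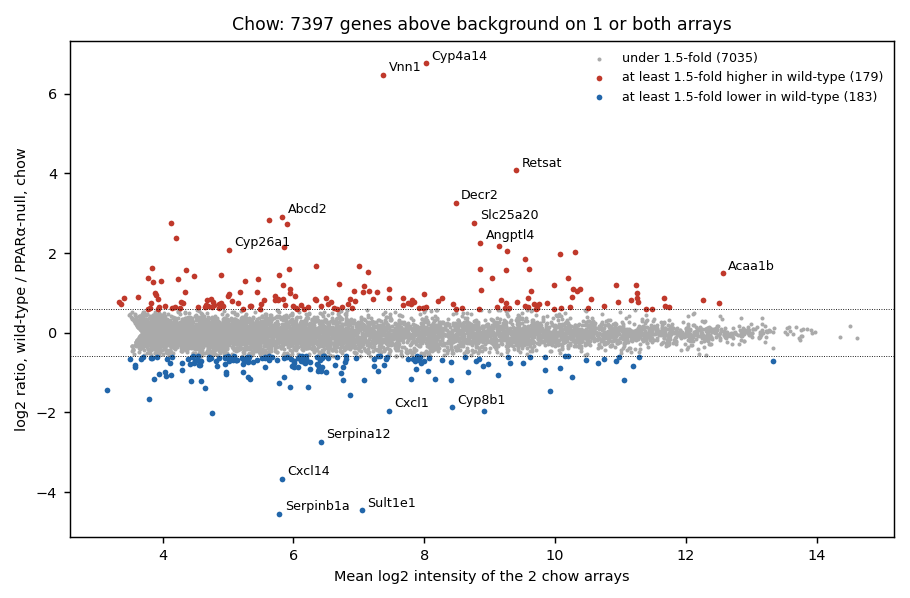
The log2 ratio between the genotypes on chow (vertical, above 0 where wild-type is higher) is plotted against the mean log2 intensity of both chow arrays (horizontal), 1 point per gene for 7397 genes. The 179 higher (red) and 183 lower (blue) genes lie outside the dotted lines at 1.5-fold, and Cyp4a14 and Vnn1 stand apart at log2 ratios of 6.76 and 6.47.

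The genes furthest above in wild-type liver included enzymes and carriers of fatty acid breakdown and genes of other known roles. Cyp4a14, a microsomal fatty acid omega-hydroxylase, had an intensity of 2717 in wild-type and 25.04 in PPARα-null liver on chow, against 9932 and 213 on Wy14643. It was 108-fold higher in wild-type mice on chow, the largest ratio of the comparison. The level in wild-type mice that had received no agonist lay above that of PPARα-null mice fed Wy14643. Vnn1, the pantetheinase that releases the coenzyme A precursor pantothenate, followed with 1561 in wild-type and 17.6 in PPARα-null liver on chow, against 6895 and 35.9 on Wy14643, which is 88.6-fold on chow. Retsat, which saturates retinol, had 2785 in wild-type and 165 in PPARα-null liver on chow, against 12966 and 209 on Wy14643 (16.9-fold on chow). A further probe set of Retsat gave a log2 ratio of 4.90 on chow. Decr2, the peroxisomal reductase needed for unsaturated fatty acids, had 1106 in wild-type and 115 in PPARα-null liver on chow, against 2362 and 122 on Wy14643 (9.62-fold). For Retsat and Decr2 the PPARα-null arrays stayed at the low end on both diets.

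Next came Abcd2, a transporter of very long fatty acids in the peroxisomal membrane, with 156 in wild-type and 20.7 in PPARα-null liver (7.52-fold higher in wild-type), and Rad51b, a gene of DNA repair by recombination, with 131 in wild-type and 18.6 in PPARα-null liver (7.05-fold). The mitochondrial carnitine-acylcarnitine carrier gene Slc25a20 had 1135 in wild-type and 167 in PPARα-null liver (6.79-fold), and its further probe set a log2 ratio of 2.92. Rab30, a small GTPase of the Golgi, had 154 in wild-type and 23.3 in PPARα-null liver (6.61-fold). Rad51b and Rab30 do not belong to a lipid pathway by their known role, and both were higher in wild-type liver on Wy14643 as well (42.99-fold and 53.2-fold). Angptl4, a secreted inhibitor of lipoprotein lipase, had 1011 in wild-type and 212 in PPARα-null liver (4.76-fold). The thioesterase gene Acot3 was 4.54-fold, the peroxisomal membrane protein gene Pxmp4 4.46-fold and Adtrp, a hydrolase of fatty acid esters, 4.15-fold higher.

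Cyp26a1, which breaks down retinoic acid, was the exception among the 25 genes furthest above: it had 66.4 in wild-type and 15.6 in PPARα-null liver on chow, against 16.6 and 12.2 on Wy14643. It was 4.25-fold higher in wild-type mice on chow and close to background on the other 3 arrays. The other 24 reached 1.5-fold in the same direction on Wy14643. They included, outside lipid breakdown, the membrane protein gene Tmem98 (3.20-fold on chow), the mitochondrial carrier gene Slc25a30 (3.19-fold), Tmed5 of transport between the endoplasmic reticulum and the Golgi (3.03-fold), the initiator caspase gene Casp8 (3.02-fold), the peroxisomal gene Hsdl2 (2.96-fold), the glutathione transferase gene Gstm4 (2.90-fold) and Prom1, which encodes a protein of membrane protrusions (2.72-fold). In PPARα-null liver, 19 of the 25 differed by less than 1.5-fold between the diets.

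**Figure D2:**
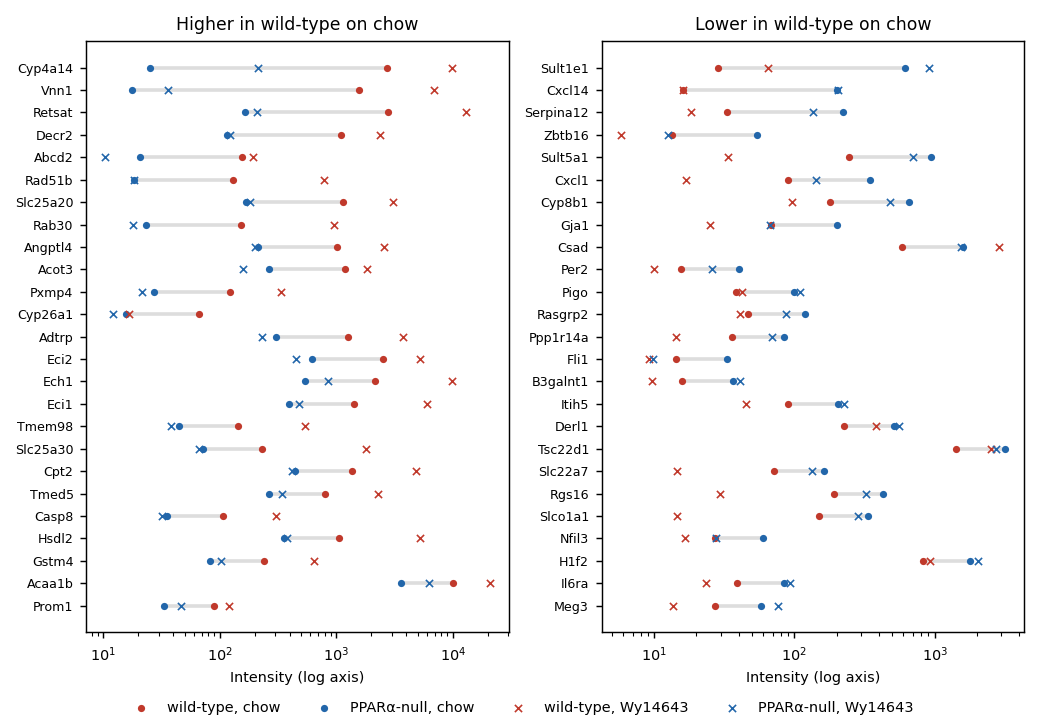
Intensity on a log axis (horizontal) of the 25 genes furthest above (left) and below (right) in wild-type liver on chow, among those above background on both chow arrays. Circles are the chow arrays and crosses the Wy14643 arrays, red for wild-type and blue for PPARα-null, and grey lines join the chow arrays. On the left the red crosses lie to the right of the red circles except for Cyp26a1.

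In mitochondrial fatty acid oxidation 11 of 25 measured genes reached 1.5-fold on chow with the higher level in wild-type liver, and 0 were lower, against 2.42% of all genes higher, and the median log2 ratio was 0.50 where that of all genes was -0.02. Entry into mitochondria was represented by Slc25a20 (above), by Cpt2, the inner-membrane carnitine palmitoyltransferase, with 1362 in wild-type and 447 in PPARα-null liver (3.05-fold), and by the carnitine transporter gene Slc22a5 with 48.6 in wild-type and 17.96 in PPARα-null liver (2.71-fold). Cpt1a, the outer-membrane transferase that sets the pace of the route, had 1089 in wild-type and 810.3 in PPARα-null liver, a log2 ratio of 0.43 and thus below 1.5-fold. Among the acyl-CoA dehydrogenases, which carry out the step that opens each cycle, Acadvl for very long chains had 1887 in wild-type and 726 in PPARα-null liver (2.60-fold), Acadl for long chains 2933 in wild-type and 1289 in PPARα-null liver (2.27-fold) and Acads for short chains 93.7 in wild-type and 59.97 in PPARα-null liver (1.56-fold). Acadm for medium chains stood at 2824 in wild-type and 2886 in PPARα-null liver, with a log2 ratio of -0.03. The ratios thus differed between these dehydrogenases, with Acadvl, Acadl and Acads above and Acadm level.

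Electrons from these dehydrogenases pass to the electron transfer flavoprotein and its oxidoreductase. Etfdh had 1526 in wild-type and 669 in PPARα-null liver (2.28-fold) and Etfb 1808 in wild-type and 849 in PPARα-null liver (2.13-fold), while Etfa, the partner subunit of Etfb, had 5878 in wild-type and 5568 in PPARα-null liver (log2 ratio 0.08). The auxiliary enzymes for unsaturated fatty acids were higher together: Eci2 with 2541 in wild-type and 626 in PPARα-null liver (4.06-fold), Eci1 with 1414 in wild-type and 395 in PPARα-null liver (3.58-fold) and Decr1 with 1219 in wild-type and 725 in PPARα-null liver (1.68-fold). Genes of the core cycle after the dehydrogenases stayed below 1.5-fold, with log2 ratios of 0.50 for Hadha and 0.20 for Hadhb of the trifunctional protein, 0.04 for Hadh, 0.02 for Echs1 and 0.48 for the thiolase gene Acaa2. Crat, the carnitine acetyltransferase, had 46.00 in wild-type and 37.3 in PPARα-null liver on chow, against 1219 and 28.3 on Wy14643. It was level between the genotypes on chow and 43.1-fold higher in wild-type liver on Wy14643. The lowest ratio of the list was that of Acad10 (-0.31).

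In the peroxisomal route, 12 of 20 measured genes were higher in wild-type liver on chow and 0 lower (median log2 ratio 0.70). Over all genes 2.42% were higher and 2.47% lower. Import was represented by Abcd2 (above) and Abcd3 with 4170.2 in wild-type and 2612 in PPARα-null liver (1.60-fold). The bifunctional enzymes had 3522 in wild-type and 2339.5 in PPARα-null liver for Ehhadh (1.51-fold) and 3309.6 in wild-type and 1815 in PPARα-null liver for Hsd17b4 (1.82-fold). The thiolase genes were 2.81-fold (Acaa1b, 10128 against 3607) and 1.65-fold (Acaa1a, 445 against 269.5) higher. Ech1, an isomerase for unsaturated chains shared with mitochondria, had 2143 in wild-type and 544 in PPARα-null liver (3.94-fold), and Hacl1, which shortens branched chains, 2611 in wild-type and 1528 in PPARα-null liver (1.71-fold). Thioesterases that release the shortened acids were higher as well, with Acot8 at 2.53-fold (69.6 against 27.5) and Acot4 at 1.85-fold (238 against 129). Acaa1a and Acaa1b, and likewise Acot3 and Acot4, are close relatives, and their probe sets may share signal. Other genes for branched chains and bile acid side chains stayed below 1.5-fold, with a log2 ratio of -0.16 for Acox2, -0.06 for Amacr, -0.09 for Phyh and -0.01 for Scp2.

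**Figure D3:**
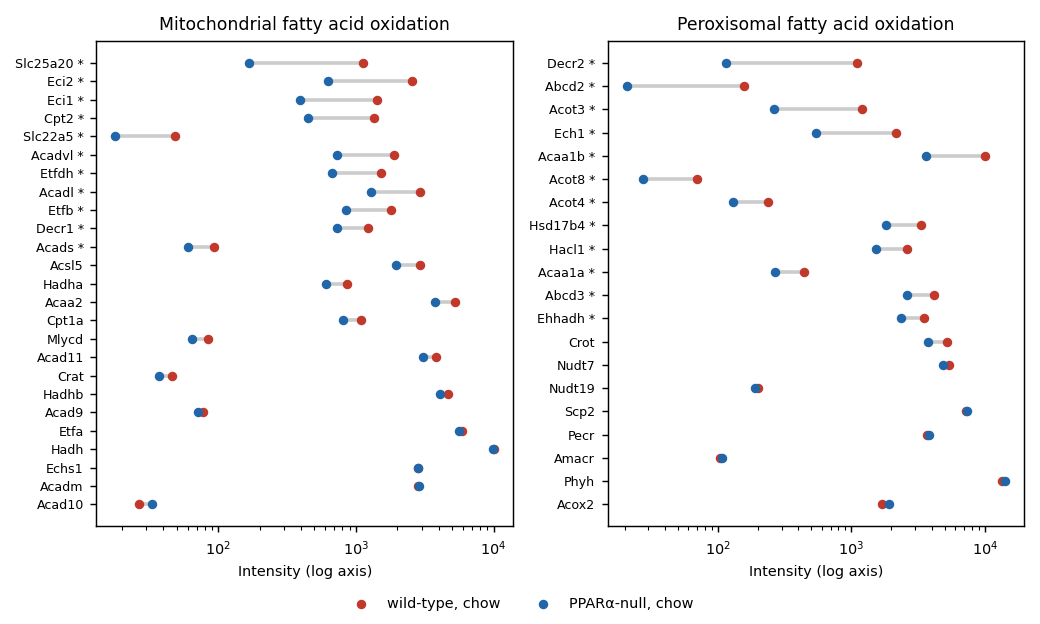
Intensity on a log axis (horizontal) of each measured gene of mitochondrial (left, 25 genes) and peroxisomal (right, 20 genes) fatty acid oxidation on the chow arrays, wild-type in red and PPARα-null in blue, ordered by ratio. Stars mark the 11 and 12 genes at least 1.5-fold higher in wild-type liver, and no gene was 1.5-fold lower.

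Some genes that build peroxisomes were higher too, where 2.42% of all genes were higher and 2.47% lower. Of 14 measured, 5 were higher in wild-type liver and 0 lower (median 0.38). Besides Pxmp4 these were Pex19, the carrier of new membrane proteins (203 in wild-type and 90.6 in PPARα-null liver, 2.24-fold), Pex11a, a gene of peroxisome division (679 in wild-type and 322 in PPARα-null liver, 2.11-fold), Pex16 (1.55-fold) and Pex26 (1.55-fold). Pex26 did not keep this direction on Wy14643, where its log2 ratio was -0.51. In microsomal omega-oxidation, 3 of 7 measured genes were higher and 1 lower. Cyp4a31, a relative of Cyp4a14, had 25.1 in wild-type and 8.10 in PPARα-null liver on chow, against 3588 and 9.64 on Wy14643, so that it was at least 1.94-fold higher on chow and at least 277-fold on Wy14643. Aldh3a2, which oxidises the fatty aldehydes formed, had 1951 in wild-type and 905 in PPARα-null liver (2.16-fold), and Cyp4v3 was 1.502-fold lower (930.5 against 1397). Cyp4a12a lay below background on both chow arrays and Cyp4f14 stood at -0.11. Of the ketone body genes, 3 were measured and 0 reached 1.5-fold, with Bdh1 at -0.01, Acat1 at 0.18 and the lowest of the 3 at -0.54.

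Among genes of fatty acid uptake, binding and activation, 3 of 18 were higher and 1 lower (median 0.15), against 2.42% and 2.47% of all genes. With Fabp3, which was below background in PPARα-null liver, taken at its smallest ratio, 2 were higher. The binding protein gene Fabp5 had 3458 in wild-type and 1718 in PPARα-null liver on chow, against 4455 and 402 on Wy14643 (2.01-fold on chow). The fatty acid translocase gene Cd36 had 1042 in wild-type and 683 in PPARα-null liver (1.52-fold), and its further probe sets gave log2 ratios of 0.62 and 0.17. Fabp4, a binding protein typical of adipocytes, went the other way on chow (1.63-fold lower, 50.6 against 82.6). Fabp1, the main binding protein of liver, differed by a log2 ratio of 0.17. In the coenzyme A list Vnn1 was the 1 of 7 genes past 1.5-fold, with its relative Vnn3 at 0.10 and the pantothenate kinase gene Pank1 at 0.13.

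Lipid droplet and triglyceride hydrolysis genes were higher in 6 of 15 cases and lower in 0 (median 0.44), against 2.42% and 2.47% of all genes. Plin2, the main droplet coat protein of hepatocytes, had 4397 in wild-type and 2391 in PPARα-null liver (1.84-fold), and Plin5, the coat protein of oxidative tissues, 42.01 in wild-type and 8.03 in PPARα-null liver (at least 3.24-fold, since it was below background in PPARα-null mice). The monoglyceride lipase gene Mgll had 1108 in wild-type and 671 in PPARα-null liver (1.65-fold) and G0s2, an inhibitor of adipose triglyceride lipase, 942 in wild-type and 588 in PPARα-null liver (1.60-fold). Lipg, the endothelial lipase gene, had 36.4 in wild-type and 13.7 in PPARα-null liver (2.67-fold), the PPARα-null level being just above background. Pnpla2, the adipose triglyceride lipase that opens hydrolysis, was level on chow with 143 in wild-type and 124 in PPARα-null liver on chow, against 1122 and 159 on Wy14643. Lpl, whose product acts on circulating triglyceride, was likewise level on chow (log2 ratio -0.12) and 41.1-fold higher in wild-type liver on Wy14643. Of the 8 genes that the study examined in detail, 7 were measured on chow and 4 were higher, namely Lipg, Etfdh, Etfb and Mgll. The study chose them with this series among its data, so their count is no independent evidence of direction. Txnip (log2 ratio 0.48), the phosphatidylcholine transfer protein gene Pctp (0.26) and Pnpla2 (0.21) lay between. A further probe set of Txnip, above background on both arrays (95.8 against 54.3), was 1.76-fold higher. Lipe was below background on both arrays.

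Where 2.42% of all genes were higher and 2.47% lower, the list of genes for making fatty acids had 0 lower and a median of 0.29. Of its 26 measured genes, 7 were higher in wild-type liver on chow. They were the desaturase genes Fads2 (2025 in wild-type and 1118 in PPARα-null liver, 1.81-fold) and Scd1 (7578 in wild-type and 4479 in PPARα-null liver, 1.69-fold), the elongase genes Elovl3 (1.71-fold) and Elovl6 (1.69-fold), the acetyl-CoA synthetase gene Acss2 (1.58-fold), the dicarboxylate carrier gene Slc25a10 (1.55-fold) and the malic enzyme gene Me1 (1.53-fold). By the brightest probe sets these folds lay between 1.53 and 1.81, and a further probe set of Scd1, above background on both arrays (2365 against 686), stood at 3.45-fold. Elovl6 had 279 in wild-type and 165 in PPARα-null liver on chow, against 84.8 and 106 on Wy14643 and was the member of these 7 that did not keep its direction on Wy14643, where its further probe set had a log2 ratio of 0.10. In retinoid metabolism, Retsat, Cyp26a1 and the retinol dehydrogenase gene Rdh11 (1.56-fold) were higher and Rdh5 (1.64-fold) lower among 13 genes. Creb3l3, a liver transcription factor released from the endoplasmic reticulum, was 1.76-fold higher (765 against 435). Among nuclear receptors and partners the calls were Ppara and Rxrb (1.53-fold higher), a receptor with which PPARα pairs, and Nr0b2 (lower). Secreted factors that were higher besides Angptl4 were Igfbp2 (3209.8 in wild-type and 1882 in PPARα-null liver, 1.71-fold) and, as the receptor of a secreted factor, Adipor2 (1.51-fold), while Lect2 was 1.60-fold lower.

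PPARα is known to bind pairs of the half-site AGGTCA set 1 base apart. Promoters from RefSeq, 250 bases before to 50 after the start of a gene on GRCm38.p6, were searched on both strands for AGGTCANAGGTCA with up to 2 mismatches in its 12 fixed bases. The motif was matched in 10 of 149 promoters of genes higher in wild-type liver on chow (6.71%), 8 of 145 of the lower genes (5.52%), 224 of 5773 of those in between (3.88%) and, over the whole table, 1190 of 27025 genes (4.40%) or 1268 of 32851 promoters (3.86%). A match is a description of letters and not a bound site. Among the members of the lipid lists named above with a match are Slc25a20 (chr9:108661886-108662185, plus strand), Acot4 (chr12:84038129-84038428, plus strand) and Plin2 (chr4:86670010-86670309, minus strand). They are shown to let the position of the match be seen beside the ratios of 2.76, 0.88 and 0.88, each written 5′ to 3′ on the strand of the gene with the match in capitals.
Slc25a20: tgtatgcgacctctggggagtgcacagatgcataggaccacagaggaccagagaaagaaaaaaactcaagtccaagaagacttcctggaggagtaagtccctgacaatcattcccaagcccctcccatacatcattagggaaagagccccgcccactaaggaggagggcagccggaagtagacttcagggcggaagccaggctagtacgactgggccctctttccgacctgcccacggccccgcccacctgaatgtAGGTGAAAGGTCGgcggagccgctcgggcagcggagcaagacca
Acot4: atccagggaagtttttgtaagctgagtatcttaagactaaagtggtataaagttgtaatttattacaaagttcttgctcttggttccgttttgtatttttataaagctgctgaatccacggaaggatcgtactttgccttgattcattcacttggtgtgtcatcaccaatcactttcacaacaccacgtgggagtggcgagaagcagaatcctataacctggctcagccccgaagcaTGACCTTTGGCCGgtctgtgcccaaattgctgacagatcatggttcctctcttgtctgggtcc
Plin2: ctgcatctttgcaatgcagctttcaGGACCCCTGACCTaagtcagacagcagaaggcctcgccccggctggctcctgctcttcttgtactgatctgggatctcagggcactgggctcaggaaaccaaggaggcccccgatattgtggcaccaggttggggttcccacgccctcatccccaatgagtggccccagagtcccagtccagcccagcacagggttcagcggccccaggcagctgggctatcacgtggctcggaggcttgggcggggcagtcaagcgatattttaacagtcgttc
The match of Slc25a20 begins 7 bases into the transcript on the strand of the gene, that of Acot4 13 bases before the start on the other strand and that of Plin2 225 bases before it on the other strand.

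Genes with the lower level in wild-type liver on chow were of other kinds. Sult1e1, the estrogen sulfotransferase, had 28.3 in wild-type and 619.8 in PPARα-null liver on chow, against 64.8 and 915 on Wy14643 and was 21.9-fold lower in wild-type liver on chow. Serpinb1a, an inhibitor of neutrophil proteases, was at least 20.6-fold lower, with 11.4 in wild-type and 267 in PPARα-null liver on chow, against 10.01 and 110.0 on Wy14643, and a further probe set above background on both arrays gave a log2 ratio of -1.88. The chemokine gene Cxcl14 had 15.9 in wild-type and 202 in PPARα-null liver on chow, against 16.1 and 204 on Wy14643 (12.7-fold lower). Its ratio was the same to within 1e-07 on both diets, which was seen for 33 of 13292 probe sets above background, so that the 2 pairs do not measure it independently. A further probe set of Cxcl14 stood at -1.68 on chow. Serpina12, the adipokine vaspin, had 33.04 in wild-type and 221 in PPARα-null liver on chow, against 18.1 and 135 on Wy14643 (6.69-fold lower). For these 4 genes both wild-type arrays lay below both PPARα-null arrays.

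They were followed by Zbtb16, a transcriptional repressor (13.4 in wild-type and 54.00 in PPARα-null liver, 4.02-fold lower), the sulfotransferase gene Sult5a1 (244 in wild-type and 950.3 in PPARα-null liver, 3.90-fold), the neutrophil chemokine gene Cxcl1 (89.3 in wild-type and 347 in PPARα-null liver, 3.89-fold), the gap junction gene Gja1 (68.3 in wild-type and 200.4 in PPARα-null liver, 2.93-fold) and Csad of taurine synthesis (583 in wild-type and 1599.6 in PPARα-null liver, 2.74-fold). The ratios of Gja1 differed between its probe sets, from -1.55 to -0.26 for the 4 above background on both arrays. The wild-type level of Zbtb16 lay just above background, and its other probe set, below background on both arrays, stood at -0.07. Apart from Cyp8b1 (3.65-fold, described with the bile acid genes), the other genes of the 25 furthest below ranged from 2.15-fold to 2.59-fold. They included the signalling genes Rasgrp2 (2.55-fold), Rgs16 (2.25-fold) and Ppp1r14a (2.38-fold), the organic anion transporter genes Slc22a7 (2.26-fold) and Slco1a1 (2.25-fold), Derl1, which helps to clear misfolded proteins (2.27-fold), the linker histone gene H1f2 (2.18-fold), the interleukin receptor gene Il6ra (2.16-fold) and the noncoding RNA gene Meg3 (2.15-fold). Fli1, B3galnt1, Itih5, Tsc22d1 and Pigo complete them with the clock genes below. On Wy14643, 21 of the 25 were again at least 1.5-fold lower in wild-type liver by the deposited values, Zbtb16 among them with both arrays below background, 1 was higher (Csad) and 3 lay between (Derl1, Tsc22d1 and Fli1). For Derl1 the other 3 probe sets, all above background on both arrays, had log2 ratios of -0.29, -0.13 and -0.09 on chow, so that its call rests on the brightest. Pigo, with log2 ratios of -1.37 on chow and -1.37 on Wy14643, had other probe sets at 0.17 and -0.32 on chow.

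Bile acid genes held 5 of 18 members that were lower in wild-type liver and 0 higher, against 2.47% of all genes lower, although the list's median was -0.01. Cyp8b1, the hydroxylase that directs synthesis to cholic acid, had 179 in wild-type and 654 in PPARα-null liver on chow, against 96.3 and 482 on Wy14643 (3.65-fold lower on chow). Cyp7b1 of the alternative route had 1760.2 in wild-type and 3126 in PPARα-null liver (1.78-fold lower), and Cyp7a1, which opens the main route, was level on chow at a log2 ratio of -0.18 (1368 against 1545). The uptake transporter genes Slco1a1 (149 against 334) and Slco1a4 (487 against 826, 1.70-fold) were lower, whereas Slc10a1, the main bile salt importer (-0.04), and Abcb11, the export pump (0.19), were level. Nr0b2, the repressor that bile acids induce, was 1.88-fold lower (60.9 against 115). In conjugation, Sult5a1 and Gstm2 (1.68-fold) were lower and Gstm4, Gstm3 (1.59-fold) and Ugt3a1 (1.76-fold) higher among 26 genes, where 2.42% of all genes were higher. The Gstm genes are close relatives, and their probe sets may share signal.

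Among clock genes 3 of 16 were lower in wild-type liver and 0 higher, against 2.47% of all genes lower, and the list had the lowest median of the pathway lists (-0.27). Per2, a repressor of the core loop, had 15.6 in wild-type and 40.5 in PPARα-null liver on chow, against 10.03 and 25.9 on Wy14643 (2.59-fold lower on chow), a level close to background in wild-type liver. Nfil3 had 26.9 in wild-type and 60.1 in PPARα-null liver (2.23-fold lower) and Bhlhe40 507 in wild-type and 770.3 in PPARα-null liver (1.52-fold lower). Clock (0.24), Per1 (0.15) and Cry1 (-0.04) stayed below 1.5-fold, as did Arntl (-0.53), Nr1d1 (-0.56) and Dbp (-0.27). The hour at which the mice of this series were killed is not given in the sources used here. Of 17 measured genes known to differ between the sexes in liver, 4 were higher and 5 lower in these male mice, so the list moved both ways. Over all genes 2.42% were higher and 2.47% lower. The male-typical genes Slco1a1, Cyp7b1, Serpina12 and Cyp2d9 (1.58-fold) and the complement gene C6 (1.503-fold) were lower. The female-typical genes Acot3, Prom1 and Hao2 (1.57-fold) were higher, as was the male-typical Elovl3.

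Other groups held few or no differences, where 2.42% of all genes were higher and 2.47% lower. In complement and coagulation 3 of 31 genes were lower, namely C2 (171 against 322, 1.88-fold), C6 and the anticoagulant gene Pros1 (1.58-fold), and 0 higher. Acute phase genes held 1 in each direction, Saa2 (897 against 525, 1.71-fold higher) and Il6ra. Endoplasmic reticulum stress genes held 2 of 22 lower (Eif2ak3 1.60-fold and Herpud1 1.52-fold), and heat shock genes 1 of 14 (Bag3 1.53-fold). The further probe sets of Eif2ak3, below background on both arrays, stood at 0.06 and 0.03. Lipid transport held the sterol exporter gene Abcg5 higher (1046 against 569.9, 1.84-fold) and the apolipoprotein gene Apoa4 lower (8067 against 13114, 1.63-fold). In glucose metabolism G6pc, the catalytic subunit of glucose-6-phosphatase, was 1.57-fold higher and Slc37a4, the carrier of its substrate, 1.53-fold lower. In the pyruvate dehydrogenase list Dlat was 1.63-fold higher by its brightest probe set and Pdk4, the kinase that shuts the complex, 1.62-fold lower (27.4 against 44.3). Single members past 1.5-fold were the cytochrome genes Cyp2c38 (2.03-fold higher) and Cyp2d9, the immediate early gene Klf6 (1.81-fold lower) and the cyclin gene Ccnd1 (1.75-fold higher).

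No member reached 1.5-fold in either direction among 20 genes of cholesterol synthesis (median 0.00, from -0.29 to 0.58), 36 of the respiratory chain (median 0.04), 16 of the tricarboxylic acid cycle (0.10), 34 of the urea cycle and amino acid breakdown (-0.06), 24 of cytosolic ribosomes (0.05) and 25 of the proteasome (0.01). The same held for 20 iron and heme genes (-0.11), 20 antioxidant genes (0.03), 22 interferon-induced genes (-0.13), 10 genes of antigen presentation (0.03) and 4 of glycerol metabolism (0.25). On chow 2.42% of all genes were higher and 2.47% lower, so lists this short would hold few or no calls in any case. Several of these lists differed between the same genotypes on Wy14643, where 18 of 25 proteasome genes were higher in wild-type liver and 21 of 34 urea cycle and amino acid genes lower. On that diet 16% of all measured genes were higher and 18.3% lower.

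**Figure D4:**
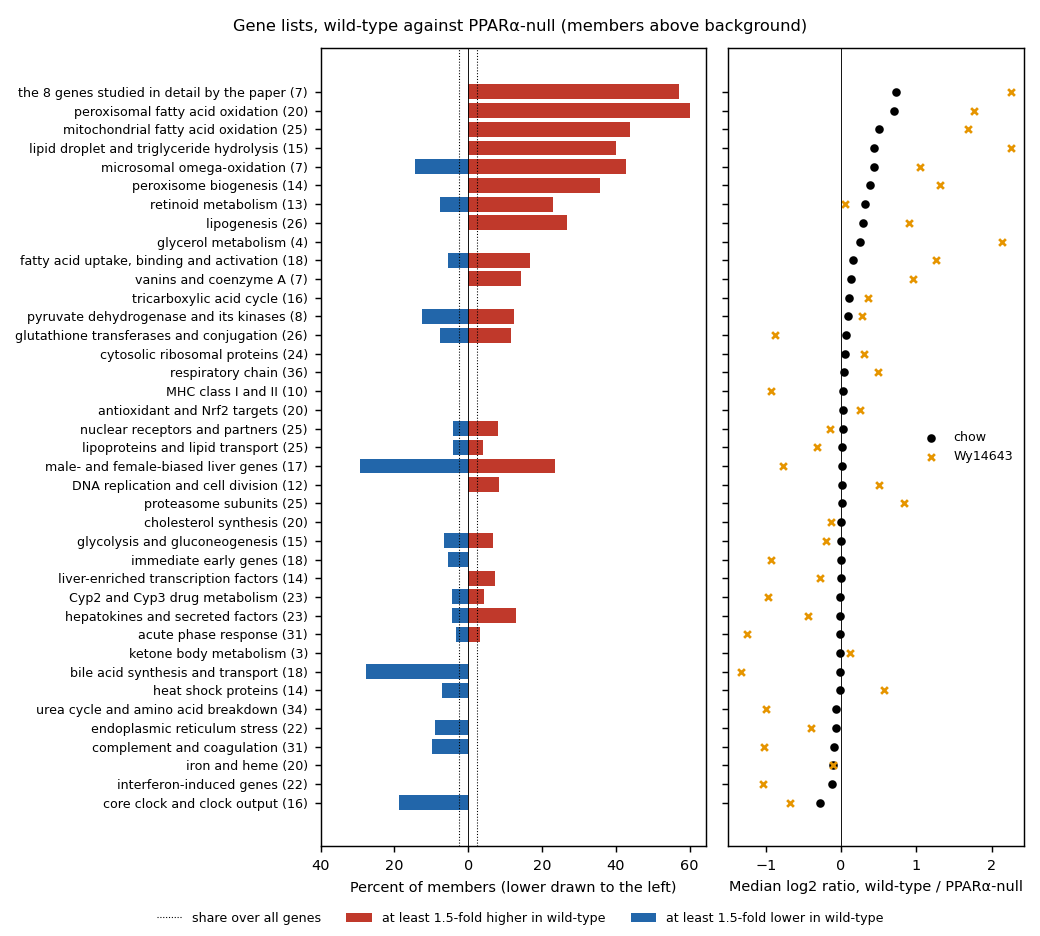
For each pathway list (measured genes in brackets) the left panel shows the percent of members at least 1.5-fold higher (red, to the right) or lower (blue, to the left) in wild-type liver on chow, with dotted lines at the shares over all genes (2.42% and 2.47%). The right panel gives the median log2 ratio, wild-type over PPARα-null, on chow (black) and on Wy14643 (orange). On chow the highest medians are 0.72 for the 8 genes that the study examined in detail and 0.70 for peroxisomal fatty acid oxidation. The study chose the 8 genes with this series among its data, so their rank is no independent evidence.

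Some genes were above background in 1 genotype only on chow. Besides Plin5 and Cyp4a31, wild-type liver alone showed Cox6b2, an isoform of a cytochrome oxidase subunit (45.2, at least 3.48-fold), the cytidine deaminase gene Cda (30.3, at least 2.33-fold), the cell cycle gene E2f8 (24.7, at least 1.90-fold) and Qpct (22.5, at least 1.73-fold). The wild-type control array also held skeletal muscle transcripts above background: Acta1 had 35.5 in wild-type and 11.9 in PPARα-null liver on chow, against 20.6 and 29.4 on Wy14643, Myh1 22.1 in wild-type and 8.49 in PPARα-null liver on chow, against 11.5 and 23.5 on Wy14643, Myl1 20.8 in wild-type and 10.7 in PPARα-null liver and Mb 20.7 in wild-type and 10.4 in PPARα-null liver on chow. On Wy14643, Myl1 had 21.1 in wild-type and 20.99 in PPARα-null liver, and Mb 15.2 and 15.9. None of these muscle genes was 1.5-fold higher in wild-type liver on Wy14643. Mb was among the genes taken as silent in liver, whose probe sets set the background. Its level above background thus does not show by itself that Mb was detected. The source of these muscle transcripts was not tested. PPARα-null liver alone showed, besides Serpinb1a, the genes Evc (at least 1.95-fold), Dmbt1 (at least 1.91-fold), Olfm3 (at least 1.86-fold), Cd93 (at least 1.78-fold), Wif1 (at least 1.69-fold) and Fmn2 (at least 1.68-fold), all with intensities of 25.3 or less. With all such genes taken at their smallest ratio, 170 genes were higher and 174 lower.

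Further probe sets of the same genes bore on the calls without being replicates of the mice. Of 269 further probe sets of 167 called genes, 213 (79.2%) had the direction of the brightest, 73 (27.1%) also reached 1.5-fold that way and 0 reached it the other way. Of the 154 that were above background on both arrays, 62 (40.3%) reached it. Among named genes, such a probe set stayed below 1.5-fold for Acss2 (0.29), Acot4 (0.49), Me1 (0.48), Pex16 (0.30), Rdh11 (0.16), Dlat (0.45 and 0.46), Tsc22d1 (-0.39), Apoa4 (-0.58) and Herpud1 (-0.17). The same held for probe sets of Cd36, Gja1, Derl1 and Pigo given above. The share with the direction of the brightest was 86.0% (98 of 114) for genes higher and 74.2% (115 of 155) for genes lower in wild-type liver. On Wy14643, a pair of arrays that shares none with the chow pair but differs in diet, 149 of the 179 genes higher on chow (83.2%) had the same direction and 131 (73.2%) reached 1.5-fold, where 16% of all measured genes did. Their median log2 ratio was 0.83 on chow and 1.81 on Wy14643. Of all 7397 measured genes, 3497 (47.3%) had a log2 ratio above 0 on Wy14643. Of the 183 genes lower on chow, 150 (82.0%) kept the direction and 106 (57.9%) reached 1.5-fold, where 18.3% of all genes did, and the median was -0.72 on chow and -0.91 on Wy14643. Opposite calls on Wy14643 were made for 16 and 13 genes, all these counts being by the deposited values. The 4 arrays were summarised together in 1 table, so the pairs share that step.

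**Figure D5:**
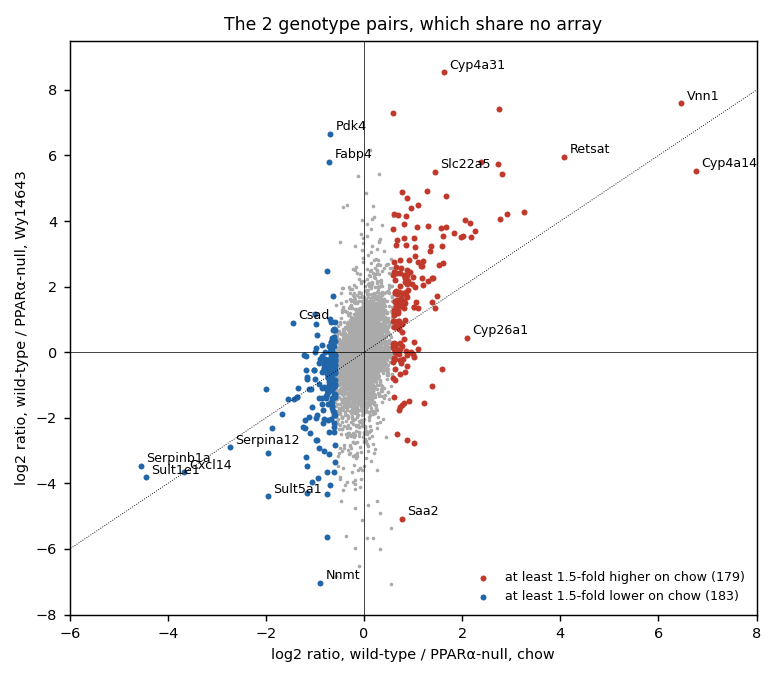
Log2 ratio between the genotypes, wild-type over PPARα-null, on chow (horizontal) and on Wy14643 (vertical) for 7397 genes, with genes called on chow in red (179) and blue (183) and a dotted line of equal ratio. Most red genes lie above the line, with medians of 0.83 on chow and 1.81 on Wy14643, and Pdk4, Fabp4 and Saa2 are among the genes with opposite directions.

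Genes next to Ppara on its chromosome were looked at because the strains are labelled differently. Among the 20 measured genes on each side, 2 were higher in wild-type liver (Abcd2 and 5031439G07Rik, log2 ratios 2.91 and 0.64) and 2 lower (Cyp2d9 and Ttll1, both -0.66). Over all measured genes 2.42% were higher and 2.47% lower. The median over the 40 was -0.03, and no test was made. Abcd2, 1 of the leading genes, thus lies in this neighbourhood, and for it the effects of the null allele, of linked sequence and of substrain cannot be told apart.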

How the data were processed

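Liver RNA of 4 groups of mice was pooled within groups and measured on 1 Affymetrix MOE430A array per group. The deposited table holds intensity on a linear scale. The authors used GCRMA (2.20 by the submitters' processing notes), a method that subtracts background, equalises the distributions of the arrays by quantiles and condenses the probes of a set into 1 value. Quantile normalization removes any difference between arrays in total RNA. Probe sets were named from the platform annotation, of which 20380 had 1 symbol, 691 several and 1555 none. Each gene was read by its brightest probe set over the 4 arrays, and log2 ratios of the deposited intensity were taken between the chow arrays. No test was made, with 1 array per group. The members and gene lists were chosen with earlier results of these data known.

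Genes named are Ppara, the 25 furthest above and below, the 10 with the largest bounds each way, the 12 each way called in both pairs, the 8 of the study and the called members of each list (8 at most). Others, such as members that lay between, were chosen after their values were seen. Alternatives were 32 added to each intensity, a floor at background, other scalings, a 2-fold threshold, and other probe sets. The calculation was tested on simulated data. Python 3.11.15, numpy 2.4.6, pandas 2.3.3, matplotlib 3.10.9 and R 4.3.3 with limma 3.58.1 were used. The sources describe the RNA labelling in 2 ways, and 1 free-text description, that of the wild-type group on Wy14643, names control conditions, so the title was followed.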

Additional observations from a re-analysis of the deposited data

Results flagged for a closer look

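For 7 of the genes named above, the ratio on chow and the ratio on Wy14643 reached 1.5-fold in opposite directions by the deposited values. Each diet has 1 array per genotype, and the difference between the diets was not tested. Csad, an enzyme of taurine synthesis, had a log2 ratio of -1.46 on chow and 0.89 on Wy14643, with 583 in wild-type and 1599.6 in PPARα-null liver on chow, against 2863 and 1543 on Wy14643. Pdk4, the kinase that shuts pyruvate dehydrogenase, had -0.70 and 6.67, with 27.4 in wild-type and 44.3 in PPARα-null liver on chow, against 3152 and 31.01 on Wy14643. Fabp4, the binding protein of adipocytes, had -0.71 and 5.81, with 50.6 in wild-type and 82.6 in PPARα-null liver on chow, against 3181 and 56.5 on Wy14643. The other adipocyte markers Adipoq, Lep, Retn and Cidec were below background on both chow arrays.

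The acute phase gene Saa2 had 0.77 on chow and -5.07 on Wy14643, with 897 in wild-type and 525 in PPARα-null liver on chow, against 21.8 and 736 on Wy14643, and the glutathione transferase gene Gstm3 0.67 and -2.51, with 80.6 in wild-type and 50.6 in PPARα-null liver on chow, against 16.97 and 96.4 on Wy14643. Myh1, a myosin of skeletal muscle, had 1.38 and -1.03, and Cd93, an endothelial and myeloid surface protein, -0.99 and 0.87, both with intensities of 23.5 or less on every array. For Cd93 the PPARα-null array on Wy14643 was below background, so that its fold there was at least 1.24 and short of 1.5. Groups of 1 array allow no search for outlying samples.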

How the results depend on the processing

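No paired analysis was possible because each group has 1 array. With 32 added to each intensity 144 probe sets were higher and 107 lower in wild-type liver on chow, and at 2-fold 91 and 64. Without probe sets that may bind several transcripts 202 were higher and 181 lower, and the median of mitochondrial fatty acid oxidation was 0.61. Without them the log2 ratio turned to 0.17 for Pigo, 0.14 for Tsc22d1 and 0.052 for H1f2, and with the median over probe sets to 0.032 for Eif2ak3. For Tsc22d1 and H1f2 these values came from probe sets below background on both arrays, and further brighter ones stood at -1.10 and -0.87 for Tsc22d1 and -1.47 for H1f2. At 2-fold, 92.7% of called genes had the same direction on Wy14643 and 87.8% of further probe sets that of the brightest, and 85.7% of the latter when above background on both arrays. Of 132 named genes called on chow, 93 stayed past 1.5-fold with 32 added, 129 with a floor at background, 125 after median centring, 127 after quantile normalization, 126 after cyclic loess and 116 with the median over probe sets. Without probe sets that may bind several transcripts 102 of 115 with a value stayed past it. Of 498 list medians recomputed, 469 moved by no more than the standard deviation of the ratio over all measured genes divided by the square root of the list's gene number. The causes were not tested, and neither was the part of signal over background.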

Other observations

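Among other genes with opposite calls in the 2 genotype pairs, chosen after their values were seen, the amino acid transporter gene Slc3a1 had 158 in wild-type and 67.97 in PPARα-null liver on chow, against 13.8 and 40.7 on Wy14643. Nrep had 221 in wild-type and 109 in PPARα-null liver on chow, against 28.2 and 190.3 on Wy14643, and Cish, which dampens cytokine signalling, 44.1 in wild-type and 25.2 in PPARα-null liver on chow, against 9.85 and 28.8 on Wy14643. Bcl6, a transcriptional repressor, had 44.04 in wild-type and 23.2 in PPARα-null liver on chow, against 13.7 and 37.97 on Wy14643, and Noct, a rhythmic gene that acts on NADP, 278 in wild-type and 151 in PPARα-null liver on chow, against 32.2 and 205 on Wy14643. For these 5 genes the wild-type control array was the highest and the wild-type Wy14643 array the lowest of the 4. Ndrg1 ran the other way, with 75.3 in wild-type and 151 in PPARα-null liver on chow, against 238 and 105 on Wy14643.

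By chromosome, 36 of 388 measured genes of chromosome 3 differed 1.5-fold in either direction on chow (9.28%), 14 higher and 22 lower in wild-type liver. Over all 7397 measured genes 362 differed in either direction, 2.42% higher and 2.47% lower. The share in either direction on the chromosome of Ppara was 16 of 284 (5.63%), 7 higher and 9 lower. Chromosome 3 was picked after the values were seen, as the chromosome with the highest share, and no test was made.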
